A study of Mus musculus with 30 samples.

Results

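The 10 genes described here are Pparg and 9 genes that make, sense, bind or degrade lipids: Cysltr1, Mgll, Plin2, Fabp5, Ptgir, Ptger2, Ptger4, Alox5ap and Ltb4r1. They were listed by symbol out of 55480 named genes in the 3' end data and 34030 in the RNA-seq data, with values of these libraries in view. Their levels are therefore given as a description, and no test on them is offered as support. All 10 were found with both kits, and all 10 passed the filter on low counts in both fits.

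The series holds 30 libraries, each made from 10 ng of total RNA of splenic CD4 T cells that were sorted from C57BL/6 mice aged 8 weeks. The RNA-seq kit (NEB Next Ultra) made 8 libraries. They were naive cells of wild type mice sorted as CD4+CD62L+CD44-CD25- (n = 2), TH2 cells of IL-4BacTg mice sorted as CD4+hCD2+ (n = 2), and TFH cells of OTII Tg mice sorted as CD4+CD45.2+ PD1+ CXCR5hi (n = 2). A further library was labelled TH2 and another TFH2 CXCR5hi, both from IL-4BacTg x OTII Tg mice. The Lexogen QuantSeq kit, which reads transcript 3' ends, made 22 libraries. They were TH2 cells of IL-4BacTg x OTII Tg mice (CD4+hCD2+, n = 4), Bcl6KO cells of Bcl6f/fCd4cre x OTII Tg mice (CD4+hCD2+, n = 2) and Il4KO cells of Il4-/- x OTII Tg mice (CD4+, n = 2). TFH cells of OTII Tg mice came from 3 sort gates, with 3 libraries of CXCR5hi, 2 of CXCR5int and 3 of CXCR5lo cells. Cells that the submitters call TFH2, from IL-4BacTg x OTII Tg mice, passed the same gates (n = 2 each). Every QuantSeq group thus carries the OTII T cell receptor transgene, and the Cd4cre driver deletes Bcl6 in all cells that pass through CD4 expression. Replicate numbers below follow the order of deposit and pair no libraries. The labels do not say whether replicates came from separate mice, so p-values cover no more than the spread from library to library, and this may be technical.

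PPARγ, the product of Pparg, is a nuclear receptor that binds fatty acids and their oxidized products and acts on DNA as a dimer with RXR. It is known as the main regulator of fat cell development, and in T cells it is known to be expressed in TH2 cells. Eicosanoids are signalling lipids made from arachidonic acid: the lipoxygenase route gives leukotrienes, the cyclooxygenase route gives prostaglandins, and each acts on its own G protein-coupled receptors.

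RefSeq promoters (build GRCm38.p6) were found for 7 of the 10 genes, as 10 windows of the 250 bases before a start site. Cysltr1, Fabp5 and Alox5ap had no entry. The windows were searched on both strands for 4 motifs. The letters AGGTCA stood for a PPAR half-site, the unit that PPAR and RXR dimers bind as a repeat. The letters AGATAA stood for a GATA site, as bound by GATA3 in TH2 cells. STAT sites, as bound by STAT6 after IL-4, were searched as TTCNNNNGAA. For NFAT, which acts after T cell receptor signals, the letters were GGAAAA.  Shown here are a Pparg window, because Pparg was high in TH2 and at 0 in TFH libraries of the RNA-seq data, and windows of Mgll and Plin2, lipase and droplet genes whose matches differ. Capitals mark each match to one of these motifs on either strand, and each sequence runs 5′ to 3′ towards the gene.

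Pparg, chr6:115421816-115422065, plus strand: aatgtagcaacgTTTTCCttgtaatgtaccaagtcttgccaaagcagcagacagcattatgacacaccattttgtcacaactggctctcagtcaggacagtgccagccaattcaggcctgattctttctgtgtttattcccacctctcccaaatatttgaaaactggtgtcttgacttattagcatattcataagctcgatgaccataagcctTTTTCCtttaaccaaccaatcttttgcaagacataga
Mgll, chr6:88724162-88724411, plus strand: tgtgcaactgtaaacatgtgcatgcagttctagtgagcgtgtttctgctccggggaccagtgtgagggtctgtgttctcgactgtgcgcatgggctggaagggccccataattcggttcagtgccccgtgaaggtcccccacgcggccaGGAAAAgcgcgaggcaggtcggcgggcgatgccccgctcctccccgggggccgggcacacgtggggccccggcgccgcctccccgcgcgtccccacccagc
Plin2, chr4:86670061-86670309, minus strand: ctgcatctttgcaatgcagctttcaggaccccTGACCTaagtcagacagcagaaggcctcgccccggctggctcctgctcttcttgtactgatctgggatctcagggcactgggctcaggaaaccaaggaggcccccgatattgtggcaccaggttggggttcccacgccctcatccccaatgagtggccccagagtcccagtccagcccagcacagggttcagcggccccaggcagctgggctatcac

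The Pparg window held 2 matches to the NFAT letters, 238 and 37 bases before its start, and the Mgll window held 1, 101 bases before the start. The Plin2 window held 1 PPAR half-site, 218 bases before the start. Of the windows not printed, 2 other Pparg start sites had a half-site 28 and 9 bases upstream, and Ptger2 had an NFAT match 31 bases upstream. No window of these genes held the GATA or STAT letters. Over all 32851 windows, the half-site letters occurred in 14.02%, the GATA letters in 9.988%, the STAT letters in 5.854% and the NFAT letters in 20.43%. These matches describe letters and say nothing about whether a factor binds there.

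Depth was 36.05 to 107.4 M counts in RNA-seq libraries (M, 10 to the power 6) and 1.83 to 4.44 M in QuantSeq libraries. Between replicates, 0.691 to 1.71% of RNA-seq genes above 200 counts differed over 2-fold, against 22.8 to 31.3% in QuantSeq. The sum of 7 TH2 markers was 2424 to 2735 counts per M (CPM) in RNA-seq TH2 libraries and 282 to 289 in TFH, and the sum of 7 TFH markers was 257 to 306 and 2206 to 2218. Both single RNA-seq libraries went against their labels. The library labelled TH2 had Cxcr5 at 135 CPM, Pdcd1 at 139 and Il1rl1 at 23.3, and the library labelled TFH2 CXCR5hi had Cxcr5 at 1.11, Pdcd1 at 5.97 and Il1rl1 at 93.5. For comparison, Cxcr5 was 0 in both libraries of the TH2 group and 438 and 442 in the TFH group, and Il1rl1 was 323 and 305 against 0.145 and 0.104. The 2 libraries are called by their labels and enter no comparison. In QuantSeq, the same TH2 sum was 1667 to 2500 CPM in TH2 libraries and 114 to 281 in TFH CXCR5hi libraries. The TFH sum was 151 to 379 and 1684 to 2056. The TH2 markers Il5 and Ccr8 were at 0 in the QuantSeq TH2 libraries, and so were Cxcr5 and Il21. Ccr8 was at 0 in every QuantSeq library. By Xist and the Y-linked Ddx3y, RNA-seq naive and TH2 libraries read female and TFH libraries male (Xist at most 0.327 CPM). QuantSeq TFH libraries read female and TFH2 libraries male by Ddx3y (0 against 48.5 to 101 CPM). Xist in the TFH2 libraries was at 0.404 and 0 CPM in CXCR5hi, 8.90 and 20.0 in CXCR5int, and 10.9 and 22.35 in CXCR5lo cells. Whether some of them held cells of both sexes was not tested. In RNA-seq comparisons of TFH with naive or TH2 cells, sex cannot be told apart from cell type. The same holds in QuantSeq for TFH2 against TFH cells. The QuantSeq TH2 group held both sexes: replicates 1 and 2 read female (Xist 337 and 380 CPM) and replicates 3 and 4 male (Ddx3y 97.5 and 28.7 CPM).

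**Figure D1:**
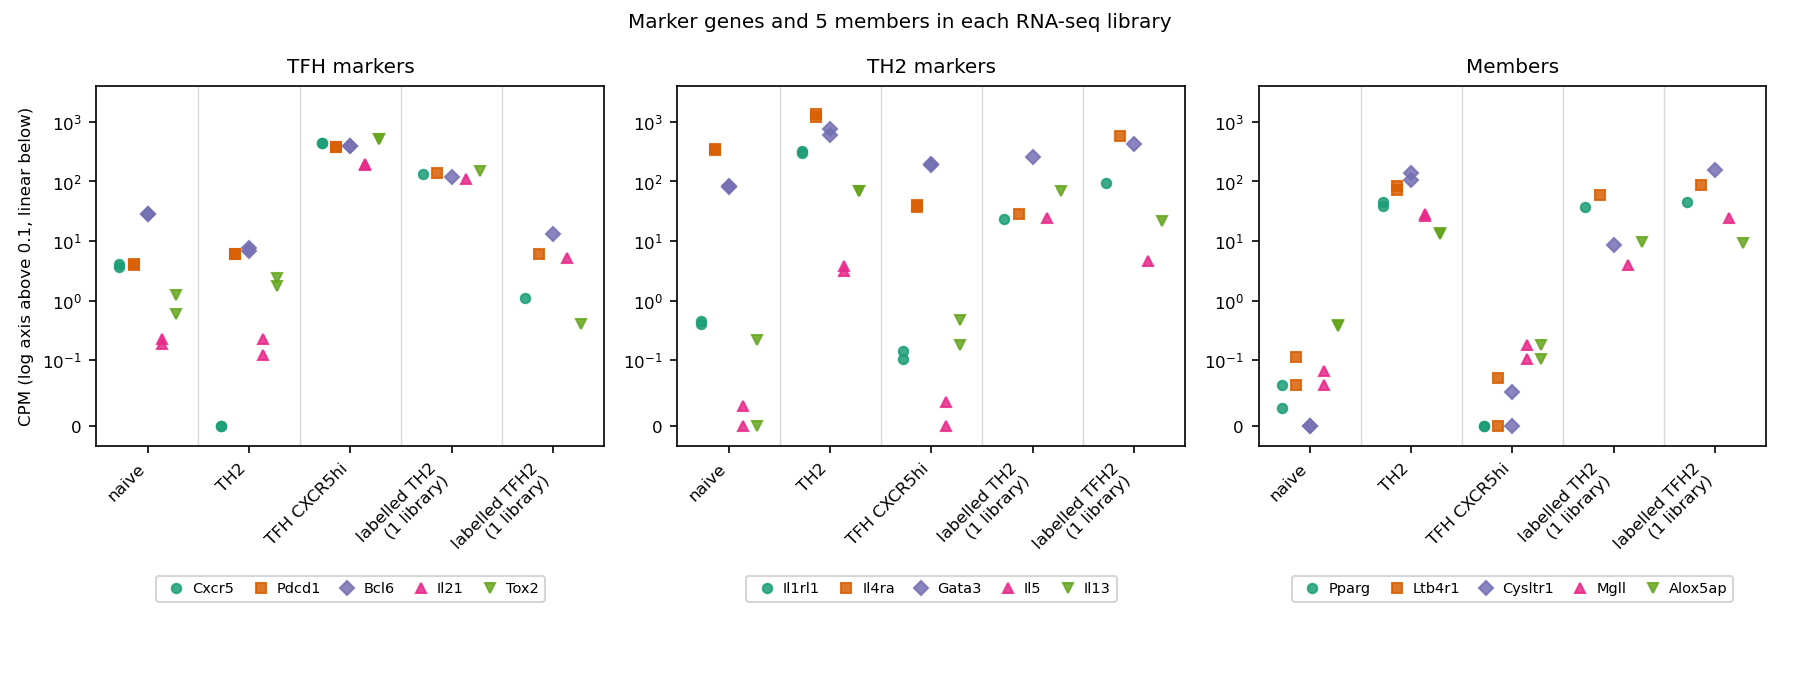
Marker genes in the 8 RNA-seq libraries, in CPM on the axis shown, by library. The library labelled TH2 from IL-4BacTg x OTII Tg mice had Cxcr5 at 135 CPM, and the library labelled TFH2 CXCR5hi had it at 1.11 CPM, against 0 in the TH2 group and 438 and 442 in the TFH group.

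In RNA-seq, 9 of the 10 genes were higher in TH2 than in naive cells and 8 were lower in TFH than in TH2 cells. Pparg, Cysltr1, Mgll and Ltb4r1 went from near 0 in naive cells to between 26.6 and 138 CPM in TH2 cells, and were at or near 0 in TFH cells. Alox5ap, Fabp5, Ptgir and Plin2 followed the same order from a higher start. The prostaglandin E2 receptors among the 10 differed from these: Ptger2 was high in both TH2 and TFH cells, and Ptger4 was similar in all groups. In these bulk samples, fewer cells that express a gene and less RNA per cell cannot be told apart.

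Pparg, on chromosome 6 (115360951 to 115490399, plus strand, GRCm38), was at 0.0630 and 0.0281 CPM in naive cells, 45.1 and 39.2 in TH2 cells, and 0 in both TFH libraries. The groups did not overlap. The TH2 libraries held 1990 Pparg counts and the naive libraries 3, a 944-fold ratio (95% counting interval 323 to 4583). With 3 counts placed in each empty library, Pparg was at least 318-fold lower in TFH than in TH2 cells. Of its transcripts, the longer of the 2 with the most counts (2125 bases) represents it here, beside one of 1767 bases. Their counts nearly coincided, 1011 and 940 in TH2 replicate 1 and 979 and 896 in replicate 2, and the sources used here do not say whether a read was counted on both. The excess of the longer transcript was 71 and 83 counts in the TH2 group, 20 in the library labelled TH2 and 19 in the library labelled TFH2.

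Of the leukotriene genes, Alox5ap encodes FLAP, the membrane protein that presents arachidonic acid to 5-lipoxygenase, on chromosome 5 (149264767 to 149288153). It was at 0.378 and 0.393 CPM in naive, 13.8 and 13.3 in TH2, and 0.182 and 0.104 in TFH cells. TH2 libraries stood above all others, by 5.13 ± 0.21 over naive on the log2 scale, and the difference of TFH from TH2 was −6.48 ± 0.25. Each ± here and below is an approximate SE, edgeR's absolute log2 estimate divided by the square root of its F statistic. That SE is not one edgeR reports. It may understate counting error where a group holds few counts, such as the 7 Alox5ap counts in TFH libraries. Cysltr1 (chromosome X, 106574346 to 106603679) encodes a receptor for cysteinyl leukotrienes, of which LTD4 binds most tightly. It was at 0 in both naive libraries, at 138 and 107 CPM in TH2 cells and at 0 and 0.0521 in TFH cells. It was at least 1375-fold higher in TH2 than in naive cells. Against TFH cells, where 1 count was found, the ratio was 5693 (1021 to 224900). Ltb4r1 (chromosome 14, 55765962 to 55768494) encodes BLT1, the high-affinity receptor for leukotriene B4, a chemoattractant. It was at 0.0630 and 0.112 CPM in naive, 72.7 and 84.2 in TH2, and 0.0727 and 0 in TFH cells. The difference between TH2 and naive cells was 9.72 ± 0.20 in log2 (841-fold), and the ratio of TH2 to TFH, with 2 counts in TFH, was 1838 (508.5 to 15190).

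Of the prostaglandin receptors, Ptgir (chromosome 7, 16906490 to 16910905) encodes the receptor for prostacyclin. It was at 4.34 and 4.97 CPM in naive, 41.8 and 47.2 in TH2, and 3.38 and 3.65 in TFH cells, so that TH2 libraries were 9.63-fold above naive ones (log2 3.27 ± 0.10). Ptger2 and Ptger4 encode EP2 and EP4, the prostaglandin E2 receptors that raise cyclic AMP. Ptger2 (chromosome 14, 44988195 to 45003820) was at 4.69 and 5.61 CPM in naive, 20.7 and 24.3 in TH2, and 30.1 and 28.5 in TFH cells. Ptger2 thus differed from Cysltr1 and Ltb4r1 in being above naive cells in both effector groups, 4.40-fold in TH2 and 5.60-fold in TFH. Ptger4 (chromosome 15, 5206661 to 5244187) was at 40.6 and 43.2 CPM in naive, 39.7 and 46.1 in TH2, and 49.1 and 50.9 in TFH cells. TH2 and naive libraries overlapped, and TFH libraries lay above both, by 0.18 ± 0.08 over TH2 and 0.23 ± 0.08 over naive in log2.

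Mgll (chromosome 6, 88724412 to 88828360) encodes monoacylglycerol lipase, which frees fatty acids from monoacylglycerols and degrades the endocannabinoid 2-arachidonoylglycerol. It was at 0.0630 and 0.0842 CPM in naive, 26.6 and 28.8 in TH2, and 0.182 and 0.104 in TFH cells. The log2 differences were 8.46 ± 0.22 for TH2 against naive and −7.52 ± 0.22 for TFH against TH2. Plin2 (chromosome 4, 86648386 to 86670060), a coat protein of lipid droplets, spanned a narrower range than Mgll: 11.5 and 11.1 CPM in naive, 37.5 and 37.9 in TH2, and 9.45 and 8.13 in TFH cells. TH2 libraries were 3.38-fold above naive ones, and TFH libraries were the lowest of the 3 groups. Fabp5 (chromosome 3, 10012548 to 10016607), a fatty acid carrier of the cytoplasm, was at 3.24 and 2.75 CPM in naive, 60.0 and 57.0 in TH2, and 1.82 and 2.24 in TFH cells. These values come from a Fabp5 transcript annotated with a retained intron. The protein-coding Fabp5 transcript gave 2.27 and 1.74, then 47.5 and 43.4, then 1.20 and 1.67 CPM, which keeps the order of the groups. Fabp5 also has a near-identical copy, Fabp5l2, so its reads may be shared.

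Divided by transcript length, levels in TH2 cells can be set in order. Ltb4r1 was highest at 52.1 and 60.4 CPM per kb. Cysltr1 (26.9 and 20.8), Pparg (21.2 and 18.5), Plin2 (19.8 and 20.1) and Fabp5 (18.5 and 17.6) followed. Cysltr1 and Pparg overlapped, as did Pparg and Plin2, while Plin2 and Fabp5 did not. Ptgir (12.7 and 14.3) and Ptger4 (12.0 and 13.9) overlapped each other, Alox5ap was at 11.0 and 10.6, and Mgll (6.67 and 7.22) lay just above Ptger2 (5.61 and 6.59) without overlap. The place of Fabp5 rests on its retained-intron transcript: its protein-coding transcript gave 48.1 and 43.9 CPM per kb, which lies above Cysltr1 and below Ltb4r1.

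**Figure D2:**
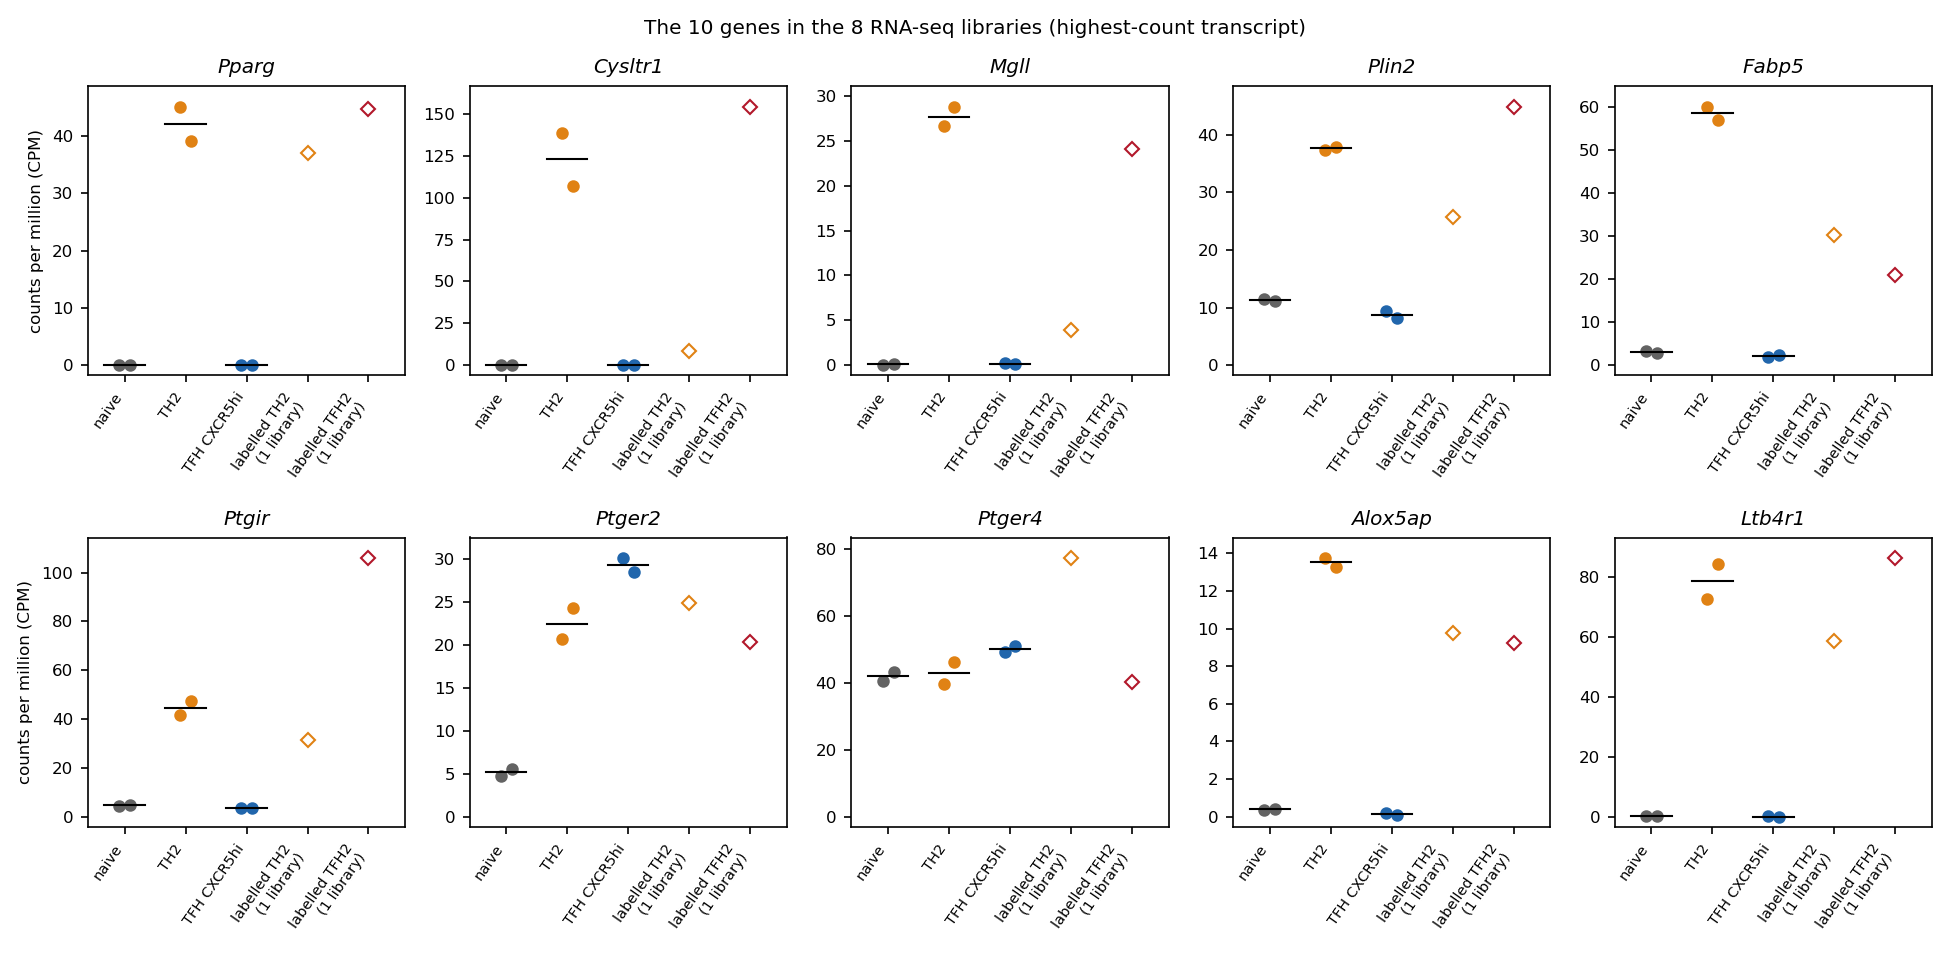
CPM of the 10 genes in the 8 RNA-seq libraries, 1 panel per gene with its own axis from 0 and 1 point per library. Pparg is at 45.1 and 39.2 in TH2 and 0 in both TFH libraries, while Ptger4 lies between 39.7 and 50.9 in the 3 groups of 2.

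By edgeR's quasi-likelihood test at an adjusted p under 0.05, 9 of the 10 were called in TH2 against naive cells, where 65.8% of all genes tested were called. In TFH against TH2 cells 9 were called, 8 lower and Ptger2 higher, beside 61.8% of all genes. In TFH against naive cells 6 were called, 2 higher (Ptger2, Ptger4) and 4 lower (Plin2, Fabp5, Ptgir, Alox5ap), beside 57.2%. The genes were chosen on these contrasts and nothing is read from the counts. The 3 contrasts also share libraries with each other. The median log2 ratio of the 10 was 4.72, −5.69 and −0.40 in this order, and that of all genes lay between −0.01 and 0. The calls of TFH against naive cells were the least steady: 1 of the 6, Ptger2, was called under every alternative tried, against 9 of 9 for TH2 against naive and 8 of 9 for TFH against TH2, where Ptger2 was lost. Without naive replicate 1, TFH replicate 1 or TFH replicate 2 the 6 became 2, and without naive replicate 2 they became 3. TH2, TFH and naive groups also differ in mouse strain and gate, and these cannot be told apart from cell type. Sex adds to this only where TFH cells are compared, because naive and TH2 libraries both read female.

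Markers of other cells were measured beside these levels. Summed myeloid markers were 20.3 to 29.2 CPM over the 3 groups of 2, with 8 of 12 detected in TH2 libraries. Of the defining genes, Lyz2, C1qa, S100a8 and S100a9 were at 0 there. Adgre1, which encodes the macrophage protein F4/80, was not: it was at 12.3 and 11.7 CPM in TH2 against 0.126 and 0.14 in naive and 0.218 and 0 in TFH libraries. TH2 libraries were thus the highest in Adgre1, as in Pparg, Ltb4r1 and Alox5ap, and the part of such cells was not tested. Summed basophil and mast cell markers (7 genes) were 356 to 364 CPM in TH2 libraries against at most 0.617 in naive and 0.182 in TFH libraries. Most of that came from Cyp11a1 and Cpa3, while Fcer1a, Ms4a2 and Prss34 were at 0. Eosinophil markers summed to at most 0.882 CPM, with Epx and Prg2 at 0. Regulatory T cell markers summed to 658 CPM in TH2, 153 to 156 in naive and 382 to 387 in TFH libraries, and their part in the result was not tested.

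The single libraries from IL-4BacTg x OTII Tg mice both held Pparg, at 37.1 CPM in the library labelled TH2 and 44.7 in the library labelled TFH2 CXCR5hi. Alox5ap was alike in both, at 9.76 and 9.23, and Ltb4r1 was at 58.7 and 86.2. Cysltr1 and Mgll set them apart: 8.67 against 154 CPM for Cysltr1 and 3.93 against 24.1 for Mgll. Ptgir was 31.3 against 106, Plin2 25.7 against 44.9, Fabp5 30.3 against 20.9, Ptger2 24.9 against 20.4, and Ptger4 77.2 against 40.1. In Cysltr1, Mgll, Plin2 and Ptgir the library labelled TFH2, whose marker genes resemble those of the TH2 group, was the higher of both. The library labelled TH2 held summed myeloid markers of 229.8 CPM, with Lyz2 at 56.7 and Csf1r at 49.2, and B cell markers of 1327 CPM. The other library held 42.2 and 829.6 CPM. Basophil and mast cell markers went the other way. They summed to 7.79 CPM in the library labelled TH2 (6 of 7 detected) and 132.9 in the library labelled TFH2 (7 of 7 detected). Whether any of these cells contribute to the reads of the 10 genes was not tested. The library labelled TH2 held both Xist (738 CPM) and Ddx3y (7.93 CPM), where naive and TH2 libraries had Ddx3y at most at 0.0630. The library labelled TFH2 read male, with Ddx3y at 113 and Xist at 0.955 CPM. Whether the first held cells of both sexes was not tested. With 1 library each there is no replicate check.

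In QuantSeq the 10 genes were sparser and far more variable, and Mgll was the most regular of them. Mgll was at 93.2, 93.5, 32.5 and 12.4 CPM in the 4 TH2 libraries. It was at 0, 0 and 0 in TFH CXCR5hi, 0.247 and 0 in CXCR5int, and 0, 0.229 and 0 in CXCR5lo cells. In TFH2 cells it was at 14.1 and 0.366 in CXCR5hi, 6.88 and 5.85 in CXCR5int, and 17.3 and 1.09 in CXCR5lo cells, so that 2 of the 6 libraries lay above the lowest TH2 library. No TFH library reached the lowest TFH2 library, and no TFH library reached the lowest TH2 library. The lowest TFH2 library (CXCR5hi replicate 2) and the highest TFH library (CXCR5int replicate 1) held 1 Mgll count each, at depths of 2.73 and 4.05 M counts. Mgll was at least 62.3-fold lower in TFH CXCR5hi than in TH2 cells, and 680-fold lower (122 to 26890) in CXCR5lo cells, where 1 count was found. Over the 3 gates it was 106-fold higher (28.8 to 886) in TFH2 than in TFH cells by summed counts. Between TH2 replicates 1 and 2 and the TFH libraries, all of which read female, Mgll was 93.2 and 93.5 against at most 0.247 CPM. The TH2 libraries that read male were the lower of the 4, at 32.5 and 12.4.

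Cysltr1 was at 64.0, 36.1, 0.995 and 3.78 CPM in QuantSeq TH2 libraries, a wide spread in which the low values were again those of the libraries that read male. The part of sex in the Mgll and Cysltr1 levels of TH2 cells was not tested. In TFH cells it was at 0, 10.5 and 0 in the CXCR5hi gate, 0 and 0 in CXCR5int, and 0, 0.229 and 1.30 in CXCR5lo. In TFH2 cells it was at 0 and 0 in CXCR5hi, 0 and 12.4 in CXCR5int, and 2.82 and 26.2 in CXCR5lo. TFH2 CXCR5hi cells lay below every TH2 library, but TH2 replicate 3 was itself under the mean level of 3 counts in the TFH2 CXCR5hi libraries (1.155 CPM), so no fold is given. Fabp5 was at 8.97, 35.4, 25.9 and 2.16 CPM in TH2 cells and at 0 in 7 of 8 TFH libraries, the exception being 15.9 in CXCR5lo replicate 1. In TFH2 cells it was at 0.404 and 0 in CXCR5hi, 0 and 7.20 in CXCR5int, and 40.9 and 62.1 in CXCR5lo, so that the CXCR5lo libraries stood above every TH2 library. Ltb4r1 was at 38.6, 41.2, 10.6 and 16.8 CPM in TH2 cells. It was at 0, 8.15 and 0, then 7.42 and 0, then 8.77, 0 and 0 in TFH cells from CXCR5hi to CXCR5lo, each library below the lowest TH2 library. In TFH2 cells it was at 0 and 5.50, then 26.3 and 37.1, then 71.5 and 147 CPM over the same gates, and the gates did not overlap. Ptgir, Plin2, Ptger4, Ptger2, Alox5ap and Pparg overlapped between QuantSeq TH2 and TFH CXCR5hi cells, and so did Cysltr1. Ptgir was at 86.6, 18.9, 3.65 and 38.4 CPM in TH2 cells and at 0, 0 and 25.3 in TFH CXCR5hi cells. Plin2 ranged from 6.41 to 15.7 CPM and Ptger4 from 1.62 to 36.1 over the TH2 libraries, against 1.02 to 13.7 and 0 to 4.78 in TFH CXCR5hi libraries. Ptger2 and Alox5ap were detected in TH2 replicate 1 alone, at 16.4 and 11.7 CPM.

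By edgeR's quasi-likelihood test, 1 of the 10 genes was called in TFH CXCR5hi against TH2 cells (Mgll, lower), beside 3.51% of all genes tested. DESeq2 called 2, Mgll and Fabp5 (adjusted p 0.00789 for Fabp5), beside 9.74% of the genes it tested. Between these groups 3 genes (Mgll, Fabp5, Ltb4r1) did not overlap, beside 12.2% of all genes. Also Mgll was the 1 called in TFH CXCR5lo against TH2 cells, beside 2.23% of all genes, and it and Ltb4r1 were the 2 that did not overlap, beside 10.5% of all genes. The Mgll calls of these comparisons held under every alternative tried. In TFH2 CXCR5hi against TH2 cells none of the 10 was called, beside 2.94% of all genes. There 3 genes (Cysltr1, Fabp5, Ltb4r1) did not overlap, beside 19.3% of all genes. An unadjusted p under 0.05 was found for 1 (Cysltr1), beside 12.7% of all genes. DESeq2 called 1 (Cysltr1, adjusted p 0.0147), beside 8.46%. Summed myeloid markers were 0 to 6.96 CPM in TH2, 60.1 to 210 in TFH CXCR5hi and 496 to 1068 in TFH2 CXCR5hi libraries, and their part in these differences was not tested.

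**Figure D3:**
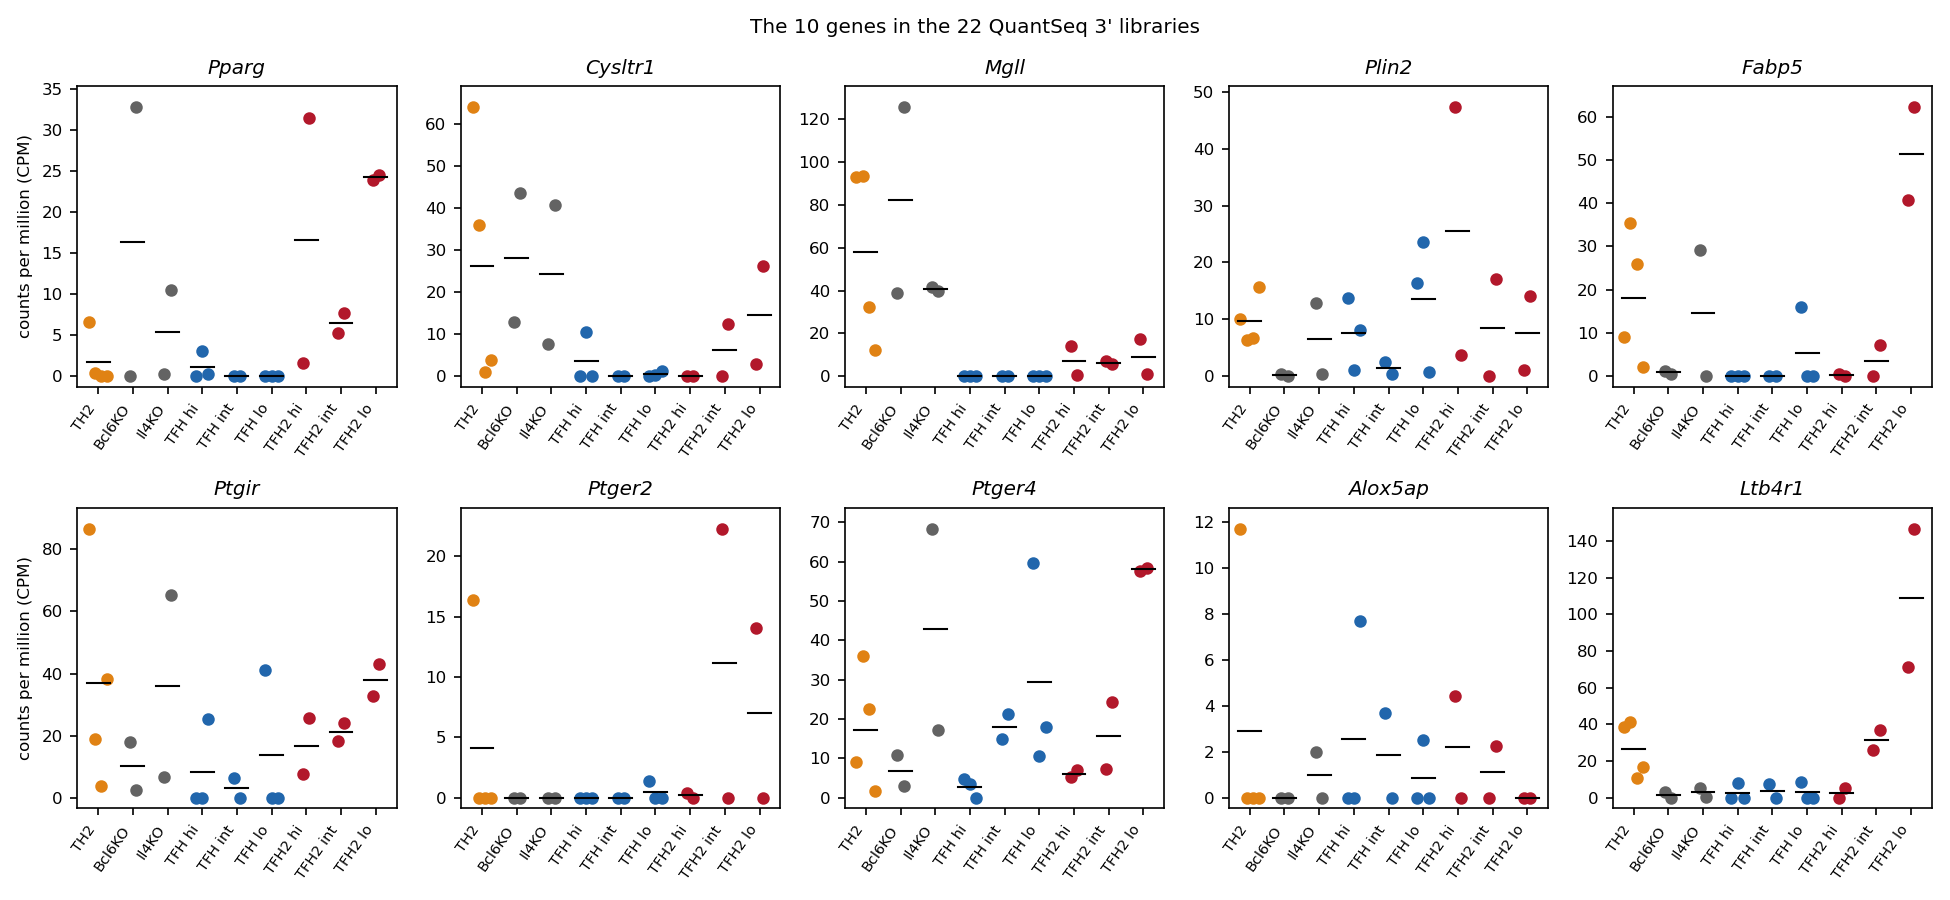
CPM of the 10 genes in the 22 QuantSeq libraries, 1 panel per gene with its own axis from 0 and 1 point per library. Mgll lies between 12.4 and 93.5 in TH2 cells, between 0.366 and 17.3 in TFH2 cells and at most at 0.247 in TFH cells.

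TFH2 and TFH cells passed the same sort gates and, by their labels, differed in the IL-4BacTg transgene. Pparg was at 0 in 6 of 8 TFH libraries, with 3.06 and 0.248 CPM in CXCR5hi replicates 2 and 3. It was above 0 in 6 of 6 TFH2 libraries: 1.61 and 31.5 in CXCR5hi, 5.26 and 7.65 in CXCR5int, and 23.9 and 24.5 in CXCR5lo cells. The TFH libraries held 10 Pparg counts in all and the TFH2 libraries 250, and 1 TFH2 library fell within the TFH range. The estimated difference over the gates was 6.74 ± 2.1 in log2, which edgeR did not call (adjusted p 0.127) and DESeq2 did (adjusted p 0.0134), beside 2.85% of the genes it tested. QuantSeq TH2 libraries were low in Pparg, at 6.63, 0.337, 0 and 0 CPM, so TFH2 libraries of CXCR5lo cells lay above all of them. In the RNA-seq TH2 libraries, which came from another strain and kit, it was at 45.1 and 39.2.

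For the other genes but Mgll and Cysltr1, no difference between TFH2 and TFH cells passed edgeR's test (adjusted p 0.377 to 0.9998). Cysltr1 was at 0 in all TFH2 CXCR5hi and TFH CXCR5int libraries. Its fit gave no usable estimate (log2 1.81 ± 3498) and is no test of a difference. Ltb4r1 had a median of 31.7 CPM in TFH2 (0 to 147) and of 0 in TFH libraries (0 to 8.77), an estimated difference of 2.72 ± 1.19 in log2 (edgeR's adjusted p 0.420). Ptgir was above 0 in all 6 TFH2 libraries, with a median of 24.9 CPM (7.67 to 43.1), and at 0 in 5 of 8 TFH libraries, whose highest was 41.1. Fabp5 had a median of 3.80 CPM in TFH2 (0 to 62.1) against 0 in TFH (0 to 15.9), and Cysltr1 1.41 (0 to 26.2) against 0 (0 to 10.5). Ptger2 was above 0 in 3 of 6 TFH2 libraries, the highest at 22.2 CPM, and in 1 of 8 TFH libraries, at 1.37. Ptger4 overlapped throughout, at 5.25 to 58.3 CPM in TFH2 and 0 to 59.7 in TFH libraries. Plin2 (0 to 47.2 against 0.416 to 23.6) and Alox5ap (0 to 4.44 against 0 to 7.69) did too.

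Over the mean of the 3 gates, edgeR called 1 of the 10 genes (Mgll, higher) beside 0.647% of all genes, and Mgll was also the 1 without overlap, beside 0.501% of all genes. That lack of overlap rests on 1 count each in the lowest TFH2 and the highest TFH library, set apart by depth. The Mgll call was lost when only the groups compared were fitted (adjusted p 0.259) and without TFH2 CXCR5hi replicate 1 (adjusted p 0.0638). Markers of other cells were higher in TFH2 than in TFH libraries as well. Summed myeloid markers were 205 to 1068 CPM against 56.8 to 210, with 11 of 12 detected against 8. B cell markers were 294 to 1046 against 196 to 291, erythroid markers 424 to 1636 against 40.0 to 342.5, and basophil and mast cell markers 8.09 to 80.4 against 0 to 39.1. Pparg and Alox5ap are known in macrophages too, and the part of such cells was not tested.

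Across the gates of TFH2 cells, 5 genes (Cysltr1, Fabp5, Ptgir, Ptger4, Ltb4r1) were higher in both CXCR5lo libraries than in both CXCR5hi libraries, and 27.8% of all genes did not overlap between these pairs in one direction or the other. Ltb4r1 was at 71.5 and 147 against 0 and 5.50 CPM, and Ptger4 at 57.8 and 58.3 against 5.25 and 6.96. Ptgir was at 32.8 and 43.1 against 7.67 and 25.6. Cysltr1 was at 2.82 and 26.2 against 0 and 0. By summed counts, Fabp5 was 256-fold higher (45.5 to 10160) in CXCR5lo cells. None of the 10 passed edgeR's test, beside 0.153% of all genes. Fabp5, Ltb4r1 and Cysltr1 had an unadjusted p under 0.05 (3 genes, beside 4.37% of all genes), and DESeq2 called 0. Summed myeloid markers were 496 to 1068 CPM in CXCR5hi and 205 to 263 in CXCR5lo libraries, and their part was not tested. Xist was at 0.404 and 0 CPM in CXCR5hi and at 10.9 and 22.35 in CXCR5lo libraries, and the part of sex was not tested. In TFH cells, Ptger4 was at 59.7, 10.5 and 17.9 CPM in CXCR5lo against 4.78, 3.40 and 0 in CXCR5hi cells, the 1 gene without overlap, beside 8.96% of all genes. There edgeR called 0 of 10, beside 0.139% of all genes, and DESeq2 called 0. An unadjusted p under 0.05 was found for 2 (Fabp5, Ptger4), beside 6.05%. The difference between both gate effects was called by edgeR for 0 genes of the 10, beside 0.0139% of all genes, and for 0 by DESeq2, with 1 (Cysltr1) at an unadjusted p under 0.05, beside 5.47%. Summed TFH markers were lower in CXCR5lo cells as well, from 1882 to 2198 CPM in CXCR5hi to 504 to 778 in CXCR5lo TFH2 cells. Summed TH2 markers went the other way in TFH2 cells, from 352 to 457 CPM in CXCR5hi to 599 to 1008 in CXCR5lo. The part of either cell type was not tested.

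By their labels, Bcl6KO cells lack the repressor that defines TFH cells, and Il4KO cells lack IL-4. Il4KO cells were sorted as CD4+ and TH2 cells as CD4+hCD2+, and neither knockout label names IL-4BacTg. Bcl6KO libraries read female (Xist 217 and 228 CPM) and Il4KO libraries male (Ddx3y 77 and 68.6 CPM). Bcl6KO cells had the same sort as TH2 cells, so for them transgene alone of these cannot be told apart from the knockout. For Il4KO cells neither sort nor transgene can be told apart from the knockout. The part of sex was not tested. The 3' tags did not check either label: Bcl6 was at 6.73 and 26.4 CPM in Bcl6KO against 0.39 to 13.2 in TH2 cells, and Il4 was at 0 and 0.98 in Il4KO against 0 to 13.3 in TH2 cells. In Bcl6KO cells Ltb4r1 was at 2.88 and 0 CPM, Fabp5 at 1.28 and 0.489, and Plin2 at 0.320 and 0, each below the lowest of the 4 TH2 libraries (10.6, 2.16 and 6.41 CPM). These were 3 of the 10, beside 9.7% of all genes without overlap. Plin2 was 46.7-fold lower by summed counts (8.19 to 1865). Mgll stayed within reach of TH2 cells at 39.1 and 126 CPM, Cysltr1 was at 12.8 and 43.5, and Pparg was at 0 and 32.7. Ptgir was at 17.9 and 2.44, Ptger4 at 10.9 and 2.93, and Ptger2 and Alox5ap were at 0 in both. In Il4KO cells Ltb4r1 was at 5.46 and 0.327 CPM, below all TH2 libraries and the 1 gene without overlap (9.69% of all genes). Mgll was at 41.6 and 39.8 and Cysltr1 at 7.75 and 40.8, within the range of the TH2 libraries. Against TH2 replicates 3 and 4, which also read male, Il4KO libraries were higher in Mgll (32.5 and 12.4 in TH2) and Cysltr1 (0.995 and 3.78). Ltb4r1 was lower than in those replicates (10.6 and 16.8). Pparg was at 0.287 and 10.4, Plin2 at 12.9 and 0.327, Fabp5 at 29.3 and 0, Ptgir at 6.60 and 65.3, and Ptger4 at 68.3 and 17.3. None of the 10 was called in Bcl6KO cells (0.0209% of all genes) or in Il4KO cells (0.0695%) by edgeR or DESeq2, and 0 had an unadjusted p under 0.05, beside 5.81 and 5.34% of all genes.

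Around the 10 genes, 5 lists of 124 distinct genes were examined, 114 of them outside the 10. In RNA-seq, 101 were tested. In TH2 against naive cells 68 were called (67.3%, against 65.8% of all genes), in TFH against TH2 cells 68, and in TFH against naive cells 60 (59.4%). These shares lie near those of all genes and are read as no result about the lists.

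Of 23 tested genes of eicosanoid synthesis and breakdown, 10 were called higher and 5 lower in TH2 than in naive cells (median log2 0.87, all genes 0), and 5 higher and 11 lower in TFH than in TH2 cells (median −0.63). Alox5, the 5-lipoxygenase that FLAP serves, was at 0 in both naive and both TFH libraries and at 3.75 and 4.45 CPM in TH2 cells. Ptges, a prostaglandin E2 synthase, was at 1.70 and 1.76 CPM in TH2, 0 and 0.0281 in naive, and 0 in TFH cells. Ptgs2, the inducible cyclooxygenase, had the reverse pattern: 2.84 and 2.92 CPM in TFH, 0 in naive, and 0 and 0.0401 in TH2 cells. Ephx1, microsomal epoxide hydrolase, fell in TH2 (3.08 and 2.97 CPM) from naive cells (74.1 and 72.5) and rose in TFH cells (441 and 435), a difference of 7.14 ± 0.10 in log2 between TFH and TH2 (adjusted p 3.513e-12). It was also higher in QuantSeq TFH CXCR5hi than in TH2 cells, by 6.18 ± 0.91 (adjusted p 1.475e-06).

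Of 22 tested lipid mediator receptors, 7 were higher and 6 lower in TH2 than in naive cells (median 0.05), and 4 higher and 7 lower in TFH than in TH2 cells (median −0.12). Cysltr2, the other cysteinyl leukotriene receptor, did not share the pattern of Cysltr1: it was at 0.220 and 0.253 CPM in naive, 5.58 and 5.21 in TH2, and 5.67 and 5.58 in TFH cells. Ptger3, the EP3 receptor, was at 1.21 and 1.40 CPM in TH2 and 0 in both TFH libraries. Cnr2, the cannabinoid receptor that the Mgll substrate 2-arachidonoylglycerol activates, was at 53.7 and 58.2 CPM in TH2 against 8.04 and 8.86 in TFH cells (log2 −2.77 ± 0.09, adjusted p 3.416e-10). In QuantSeq it was at 94.8, 27.3, 41.1 and 0.541 CPM in TH2 cells and at 0 in the 3 TFH CXCR5hi libraries, a call (adjusted p 0.0170) that some alternatives lost. Gpr183, an oxysterol receptor, rose by 2.47 ± 0.35 in QuantSeq TFH CXCR5hi against TH2 cells (adjusted p 4.041e-08), and S1pr1, a sphingosine 1-phosphate receptor, fell by 3.57 on the log2 scale (adjusted p 5.889e-10). S1pr1 was also higher in CXCR5lo than in CXCR5hi TFH cells, by 3.75 ± 0.47 (adjusted p 6.983e-09).

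Among 15 tested PPAR, RXR and LXR factors and coregulators, Pparg moved against the list. In TH2 against naive cells 2 were called higher, Pparg and Rxra, and 11 lower (median −0.72). In TFH against TH2 cells 9 were called higher and 2, again Pparg and Rxra, lower (median 0.45). Rxra, a dimer partner of PPARγ, was at 14.4 and 15.3 CPM in naive, 28.9 and 36.3 in TH2, and 17.6 and 18.4 in TFH cells, a rise of 1.15 ± 0.11 in TH2 over naive cells (adjusted p 2.087e-06). Ppard, the related receptor PPARδ, had the opposite order, at 39.1 and 39.8, then 13.3 and 18.8, then 37.9 and 36.3 CPM. It fell by 1.28 in log2 in TH2 against naive cells (adjusted p 3.949e-06). Ppargc1b, a coactivator of nuclear receptors, fell by 1.78 (adjusted p 3.353e-08), and Nr1h3, the oxysterol receptor LXRα, fell by 2.34 (adjusted p 1.794e-04).

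Of 19 tested genes of lipid droplets, lipolysis and 2-arachidonoylglycerol, 9 were higher and 3 lower in TH2 than in naive cells (median 0.17), and 4 higher and 9 lower in TFH than in TH2 cells (median −0.51). Hilpda, an inhibitor of droplet lipolysis, moved with Plin2: it was at 8.53 and 8.47 CPM in naive, 41.5 and 36.8 in TH2, and 9.93 and 10.0 in TFH cells (TH2 against naive 2.22 ± 0.11, adjusted p 8.42e-09). G0s2, another lipolysis inhibitor, fell by 6.37 (adjusted p 1.142e-06), and Lipa, the lysosomal acid lipase, by 1.80 (adjusted p 2.301e-09). Of 22 tested genes of fatty acid binding, uptake and oxidation, 10 were higher and 5 lower in TH2 than in naive cells (median 0.32), and 5 higher and 12 lower in TFH than in TH2 cells (median −0.25). Angptl4, a known PPAR target that inhibits lipoprotein lipase, was at 1.54 and 1.07 CPM in naive, 8.93 and 9.82 in TH2, and 1.13 and 0.521 in TFH cells (TH2 against naive 2.86 ± 0.27, adjusted p 3.212e-06). The fatty acid transporter Slc27a1 rose by 1.64 ± 0.11 (adjusted p 1.827e-07) and Acadl, an enzyme of beta oxidation, by 1.33 ± 0.07 (adjusted p 2.649e-08), while Cpt1b, a carnitine palmitoyltransferase, fell by 1.46 (adjusted p 9.258e-06).

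**Figure D4:**
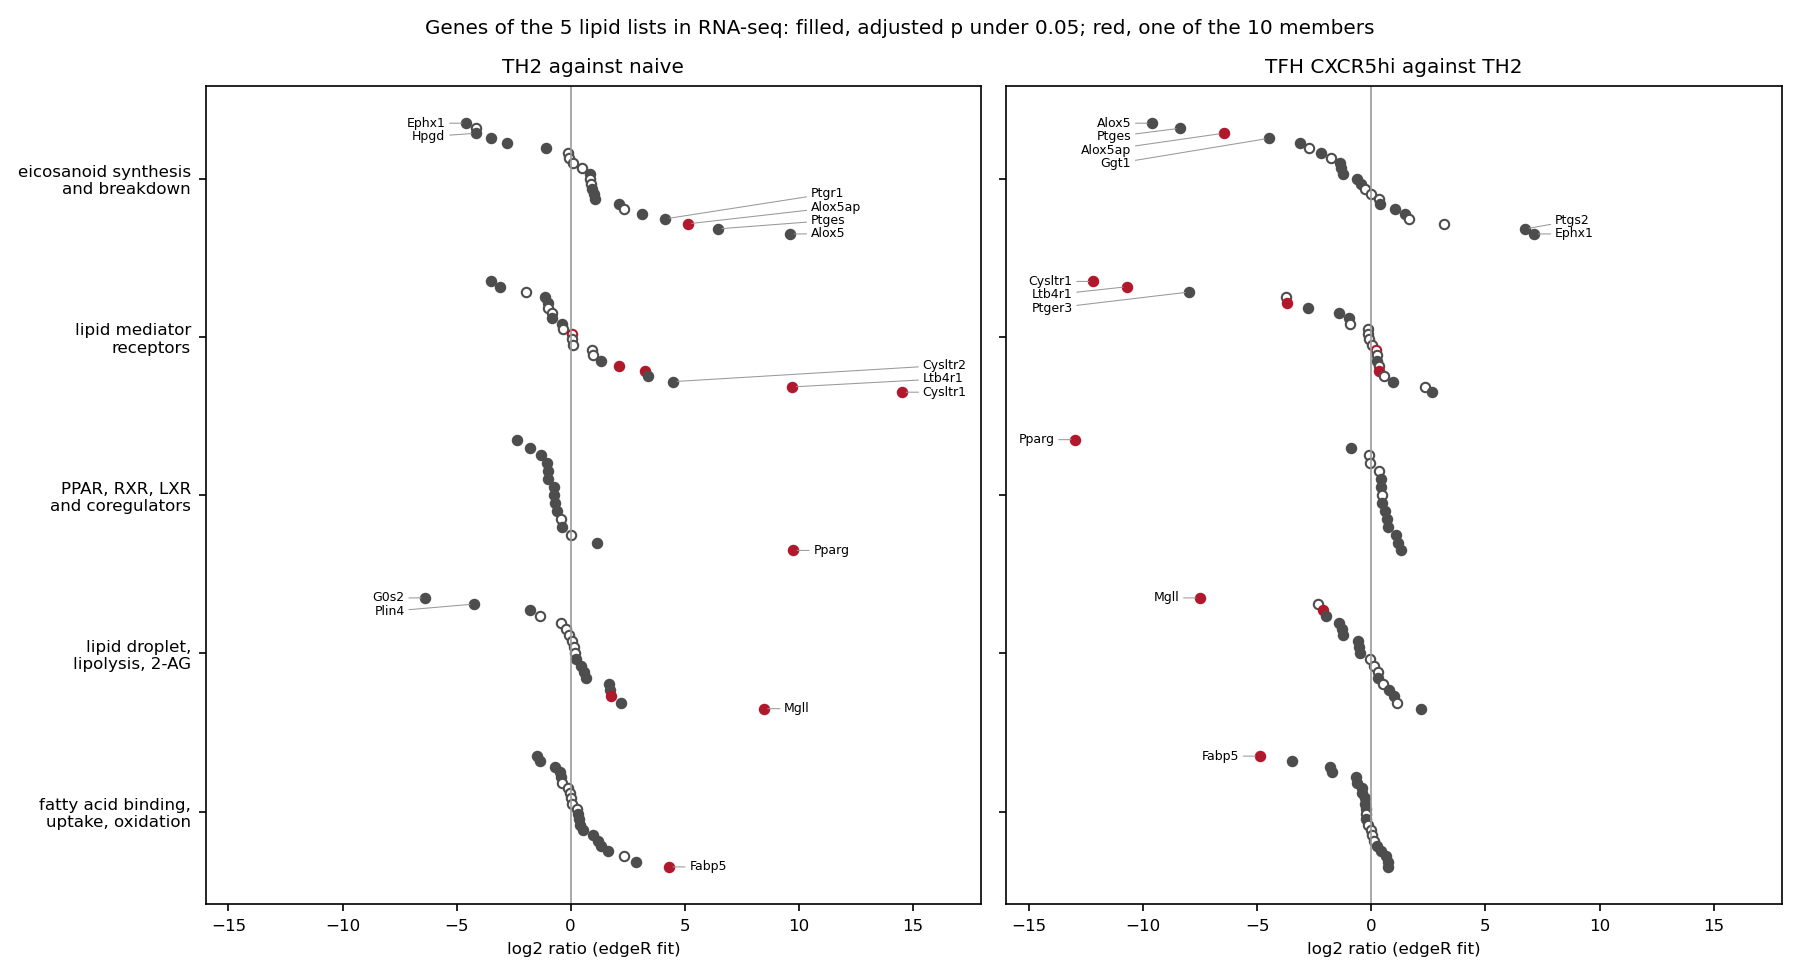
Log2 ratios of the genes of the 5 lipid lists in RNA-seq (horizontal axis), TH2 against naive cells on the left and TFH CXCR5hi against TH2 cells on the right, 1 point per gene, filled where the adjusted p is under 0.05 and red for the 10 genes. Fitted ratios of genes at or near 0 in a group depend on the fit and are no bound. Pparg is the outermost point of the nuclear receptor list in both panels.

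In QuantSeq, 80 list genes were tested. Against TH2 cells, 8 were called in TFH CXCR5hi (10.0%, beside 3.51% of all genes), 4 in TFH CXCR5lo (5.0%, beside 2.23%) and 5 in TFH2 CXCR5hi (6.25%, beside 2.94%). In TFH2 against TFH cells 1 was called (1.25%, beside 0.647%), and 1 in CXCR5lo against CXCR5hi TFH cells (1.25%, beside 0.139%). The lists were chosen with earlier results of these data known, so nothing is read from these shares. Of the 16 calls named by the rule for these lists, 10 held under every alternative and 6 did not (Cbr1 in 2 comparisons, Lpar6 in 2, Hpgds and Cnr2). In RNA-seq 56 of 60 did, the exceptions being Hpgd, Ptger3 and Plin4 in TH2 against naive cells and Cpt1b in TFH against TH2 cells.

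The genes whose pattern was most like that of Pparg were ranked by Pearson's r of log2(CPM + 1), as a description. Over the 8 RNA-seq libraries and 9371 genes with a mean of at least 10 CPM, Ltb4r1 came first (r = 0.999), followed by Msrb1 (0.999), Fgl2 (0.998), Axl (0.998) and Lgals3 (0.997). Of the other genes described here, Alox5ap had r = 0.993, Plin2 0.971, Ptgir 0.968, Fabp5 0.967, and Cysltr1 and Mgll 0.942 each, while Ptger2 had 0.419 and Ptger4 0.129. These points share 3 replicated groups and 2 single libraries, so r mostly records which groups are high. Over the 22 QuantSeq libraries and 7978 genes, r was lower throughout: Picalm 0.666, Slc2a1 0.663, Ewsr1 0.654, Ccdc34 0.633 and Ubp1 0.631. There Cysltr1 had r = 0.435, Ptgir 0.4, Ltb4r1 0.358, Ptger2 0.324, Mgll 0.251, Fabp5 0.143, Ptger4 0.065, Alox5ap −0.127 and Plin2 −0.25. None of the 5 genes named in one kit was named in the other. With a minimum of 5 CPM 1 of the 5 QuantSeq genes was named again, and with a pseudocount of 5 3 were. In sparse counts such weak values are no finding.

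Reads of several of these genes may be shared with neighbours, because the sources used here do not say whether counting used strand. Pparg overlaps Gm44079, Cysltr1 lies within Gm5127, and Mgll overlaps Gm26588. Ptger2 overlaps Gm17173 and Gm49364, Ptger4 overlaps Ttc33, and Alox5ap overlaps Gm19719.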

How the data were processed

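The authors deposited whole counts per gene for the QuantSeq libraries and whole counts per transcript for the RNA-seq libraries. Per the submitters' processing notes, the tools were STAR 2.7.0c, Bowtie 0.12.2 and featureCounts 1.6.0 and the builds mm9, mm10 and GRCm38.p6. The sources used here do not say which of them made which file. Names and coordinates came from GENCODE M21 (GRCm38). Of 55573 QuantSeq identifiers 93 had no name (0.0062% of counts). Names were found for 82946 of 95883 RNA-seq transcripts, and 14.66% of counts lay on the rest, which were left out. The transcript with the most counts over all libraries stood for its gene. The 10 genes and all lists were chosen with earlier results of these data known. Values are counts per M named counts. Each kit was fitted apart with edgeR 4.0.16 in R 4.3.3 (TMM, filterByExpr with a minimum count of 10 and total of 15, robust quasi-likelihood test, 2-sided) over 14380 genes and 9 groups (QuantSeq, 13 residual degrees of freedom, biological coefficient of variation 1.26) or 17013 genes and 5 groups (RNA-seq, 3 and 0.0879). P-values were adjusted by Benjamini-Hochberg over all genes of a comparison, and 12 comparisons were made. Labels name no batch, animal or replicate number, so no covariate was used. Against a group with no count, 3 counts were placed in each library to give a bound; with 1 to 3 counts, the ratio of summed counts has an exact 95% interval. Both cover counting error only. Named were the 10 genes, up to 5 called genes per list and comparison by absolute log2 ratio, and the 5 genes most like Pparg per kit. The fit was tested on simulated data. Alternatives were DESeq2 1.42.0, no filter, fits of only the groups compared, parts of the TH2 group, summed transcripts and leaving out each library.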

Additional observations from a re-analysis of the deposited data

Results flagged for a closer look

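In the 4 QuantSeq TH2 libraries, replicate 1 stood apart from the others in 3 of the 10 genes. Pparg was at 6.63 CPM there and at most at 0.337 in the others, Ptger2 was at 16.4 CPM and 0 in the others, and Alox5ap was at 11.7 CPM and 0 in the others. For evenly spread values a gap of this size is met by chance in about 1 in 20 groups, and 10 genes were examined. That rate does not hold for genes mostly at 0, where a lone positive library is common: of the 22 QuantSeq libraries, Ptger2 was at 0 in 17, Alox5ap in 15 and Pparg in 9. The single RNA-seq libraries, which entered no comparison, held these genes above the highest naive library: 10 of 10 in the library labelled TH2 and 9 of 10 in the library labelled TFH2 CXCR5hi, where Ptger4 was the exception. The share of all genes that lay above both naive libraries was not counted. Because the 10 were also chosen with these data known, nothing is read from these counts.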

How the results depend on the processing

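No paired analysis was possible because the labels give no replicate number of their own and numbers follow the order of deposit. Numbers of called genes were higher with DESeq2: 977 against 505 for TFH CXCR5hi and 683 against 320 for CXCR5lo against TH2, 827 against 423 for TFH2 CXCR5hi against TH2, 279 against 93 for TFH2 against TFH, 83 against 20 and 127 against 22 for CXCR5lo against CXCR5hi in TFH and TFH2, 124 against 3 for Bcl6KO, 91 against 10 for Il4KO, and 35 against 2 for the gate by genotype difference. With no filter on low counts the last 6 were 140, 34, 39, 17, 38 and 4. With only the groups compared, CXCR5lo against CXCR5hi gave 7 in TFH and 0 in TFH2 cells, Bcl6KO 1 and Il4KO 0. Against TH2 replicates 1 and 2, Bcl6KO gave 63 and Il4KO 74, and against replicates 3 and 4, 50 and 33. Leaving out 1 library at a time gave 81 to 213 calls for TFH2 against TFH (the most without TFH2 CXCR5lo replicate 1), 13 to 29 and 21 to 111 for the gates of TFH and TFH2, 7 to 56 for Bcl6KO (the most without its replicate 1), 10 to 32 for Il4KO and 1 to 43 for the gate by genotype difference. The cause was not tested. Of the 10 genes, Ptger4 in RNA-seq TH2 against naive cells turned to −0.0049 in log2 with no filter, and ranged from −0.0901 to 0.129 over libraries left out, the lowest without TH2 replicate 2. Cysltr1 in TFH against naive cells ranged from 0 to 3.37, the lowest without TFH replicate 2. Neither was called. Of the 5 QuantSeq genes most like Pparg, 1 was named again with a minimum of 5 CPM and 3 with a pseudocount of 5. Among values of the 10 genes under the alternatives, calls were kept in 39 cases and lost in 2 in QuantSeq, and kept in 169 and lost in 23 in RNA-seq. Of the uncalled values, 77 changed direction, 4 gained a call and 885 did neither in QuantSeq, against 3, 2 and 39 in RNA-seq. The QuantSeq depth of 1.83 to 4.44 M counts leaves many of these genes at 0 in single libraries.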
